A study of Mus musculus with 9 samples.

Results

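The Hox cluster genes are the 39 features of the count table whose symbol reads Hox, a cluster letter from a to d and a number, out of 32286 features in all. They comprise 11 genes of HoxA, 10 of HoxB, 9 of HoxC and 9 of HoxD. In the mouse genome (GRCm38) these clusters lie at chr6:52155367-52260880, chr11:96194316-96368254, chr15:102921131-103036856 and chr2:74668225-74765142. The rule itself uses no measured value.

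Hox genes encode homeodomain transcription factors that give cells of the embryo their position along the head-to-tail axis. Within a cluster the genes stand in the order in which they are used along that axis, low numbers towards the head and high numbers towards the tail, and adult fibroblasts, vessel cells and epithelia keep part of this pattern as a record of where in the body they arose. KMT2A of the Trithorax group keeps Hox genes active and Polycomb proteins keep them silent, whereas KMT2C and KMT2D are related methyltransferases that mark histone H3 at enhancers.

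Unsorted cell suspensions, cleared of dead cells and debris on Percoll layers, of 9 primary tumours of 168FARN, a mouse mammary tumour cell line, were run, cell by cell, on a droplet RNA sequencing platform that reads the 5′ end of transcripts. The tumours had grown in the mammary fat pad of female BALB/c mice obtained at 5 to 6 weeks of age. Tumour cells of 3 tumours were wild type (WT), those of 3 carried a knockout of Kmt2c (Kmt2c KO) and those of 3 a knockout of Kmt2d (Kmt2d KO), and the tumour cells had been given the reporter H2B–mCherry, whose transcript is listed as H2BMc. Each knockout was made with pooled guides against exon 1 and sorting rather than from a clone, so that the tumours of a group replicate the mouse and not the knockout, while host cells kept both genes in every group.

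The deposited table gives the genotype of a library only as the letter C, D or X, which was read here as Kmt2c KO, Kmt2d KO and WT, and every comparison of genotypes rests on this reading. Numbers 1 to 3 only name libraries. The libraries held 21529691 to 125617312 unique molecular identifiers (UMIs), and 58645 of 89147 barcodes passed the filters on cells. The limit on mitochondrial UMIs removed 11.6% to 33.8% of barcodes in WT, 7.78% to 9.96% in Kmt2c KO and 13.3% to 17.6% in Kmt2d KO libraries. No more than 206 kept barcodes were shared by any pair of libraries, and replicate libraries differed by more than counting noise. The target transcripts did not mark their own knockouts. Kmt2c lay below every WT library in 2 of 3 Kmt2c KO libraries and above in 1, at 42.0 to 57.6 UMIs per 1000000 UMIs (CPM) in Kmt2c KO and 48.1 to 49.1 in WT tumour cells. Kmt2d was higher than in every WT library in 3 of 3 Kmt2d KO libraries and in 3 of 3 Kmt2c KO libraries. It read 24.3 to 31.9 CPM in Kmt2d KO, 21.8 to 31.1 in Kmt2c KO and 14.9 to 21.4 in WT. Small indels in exon 1 need not lower a transcript, so these counts check no label. Kmt2d KO library 2 stood apart from the other Kmt2d KO libraries in several values below.

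Tumour cells were taken as the 16707 kept cells with at least 1 H2BMc UMI, which held 231692188 UMIs and numbered 361 to 3434 per library. Krt8, a keratin, had a UMI in 79.9% of them. Epcam, Cdh1, Krt7 and Krt19, which define epithelium, had a UMI in at most 0.120%, and Pdgfra, a fibroblast receptor, in 52.0%, so the cells are called H2BMc-positive cells here. Median depth per cell was 13729 to 24081 UMIs in WT and 8661 to 14789 in knockout libraries, and levels below are CPM over the summed counts of a library or gate. A 5′ UMI is counted once per transcript whatever its length, which allows levels to be set beside each other between genes, within the limits of capture.

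Hox genes took up 47.2 CPM of the H2BMc-positive cells (10936 UMIs), and 84.4% of these UMIs came from HoxA. A UMI was found for 29 of the 39 genes and more than 3 UMIs for 24. The 10 genes without a UMI, which allows each a level of up to 0.0129 CPM, were Hoxa11, Hoxa13, Hoxb1, Hoxb13, Hoxc11, Hoxc12, Hoxc13, Hoxd1, Hoxd12 and Hoxd13. All but Hoxb1 and Hoxd1 stand at the tail end of their clusters.

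The HoxA level was not even along the cluster but peaked at Hoxa7. Hoxa7, a gene of the trunk, read 22.4 CPM (95% Poisson interval 21.8 to 23.0), Hoxa3 10.1 CPM, Hoxa5 4.74 CPM and Hoxa6 1.02 CPM. Hoxa2 and Hoxa4 read 0.367 and 0.414 CPM. Past Hoxa7 the level fell to 0.0432 CPM at Hoxa9, the next gene of the cluster, and was 0.298 CPM at Hoxa10.

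A fall in level along the cluster was also read in HoxB and HoxC, past the gene numbered 6 in both. In HoxB, Hoxb4 read 2.49 CPM and Hoxb6 2.05 CPM, while Hoxb7, Hoxb8 and Hoxb9 read 0.0388, 0.0216 and 0.0129 CPM. In HoxC, Hoxc6 read 0.673 CPM and Hoxc8 0.0129 CPM. HoxD was low, with Hoxd3 at 0.0906, Hoxd4 at 0.427, Hoxd8 at 0.0820, Hoxd10 at 0.0518 and Hoxd11 at 0.00863 CPM, the last from 2 UMIs. The 99 UMIs of Hoxd4 came from 99 cells, whereas the 19 of Hoxd8 came from 8 cells and the 12 of Hoxd10 from 5. In all, 500 H2BMc-positive cells held 2 immune or 2 endothelial markers, and the part of such cells in these HoxD levels was not tested. All intervals cover counting error only. Hoxa3 overlaps Hoxa4, Hoxa5 and Hoxa6 in the annotation, as do Hoxb3 and Hoxb4, Hoxd3 and Hoxd4, and Hoxd10 and Hoxd11, so that the division of reads within these sets is uncertain.

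The step in level falls between Hoxa7 and the next genes, Hoxa9 and Hoxa10. Hoxa10 is also the member called in each knockout below, where its calls are given as a description. The stretches of 250 bases just before the start of Hoxa7, Hoxa9 and Hoxa10 are therefore shown. They are RefSeq sequences of GRCm38.p6 on the minus strand of chromosome 6 (chr6:52218574-52218823, chr6:52227371-52227620 and, for the listed start of Hoxa10 nearer to Hoxa9, chr6:52234940-52235189), written 5′ to 3′ with CpG dinucleotides in capitals.
Hoxa7: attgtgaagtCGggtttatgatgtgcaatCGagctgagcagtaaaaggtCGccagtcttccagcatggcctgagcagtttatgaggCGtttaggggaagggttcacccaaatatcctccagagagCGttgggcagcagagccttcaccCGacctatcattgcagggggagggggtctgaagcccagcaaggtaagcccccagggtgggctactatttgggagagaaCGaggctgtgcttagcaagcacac
Hoxa9: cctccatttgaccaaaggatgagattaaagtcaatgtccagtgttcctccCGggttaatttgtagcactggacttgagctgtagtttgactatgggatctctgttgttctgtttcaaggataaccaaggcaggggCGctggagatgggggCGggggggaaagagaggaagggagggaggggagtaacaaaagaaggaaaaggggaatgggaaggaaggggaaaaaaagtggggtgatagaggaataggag
Hoxa10: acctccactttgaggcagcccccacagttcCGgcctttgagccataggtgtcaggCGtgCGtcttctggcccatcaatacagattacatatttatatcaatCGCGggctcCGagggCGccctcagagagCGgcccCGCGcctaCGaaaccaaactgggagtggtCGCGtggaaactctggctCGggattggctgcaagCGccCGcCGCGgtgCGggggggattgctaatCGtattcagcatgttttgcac
CpG dinucleotides, the sites of DNA methylation, numbered 7 before Hoxa7, 3 before Hoxa9 and 20 before Hoxa10. The median over the 32817 promoter stretches of this length was 6, and 53.7%, 29.1% and 82.1% of them held fewer than these 3 genes. A CpG is read alike on both strands, and 92.1% of all stretches hold at least 1.

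**Figure D1:**
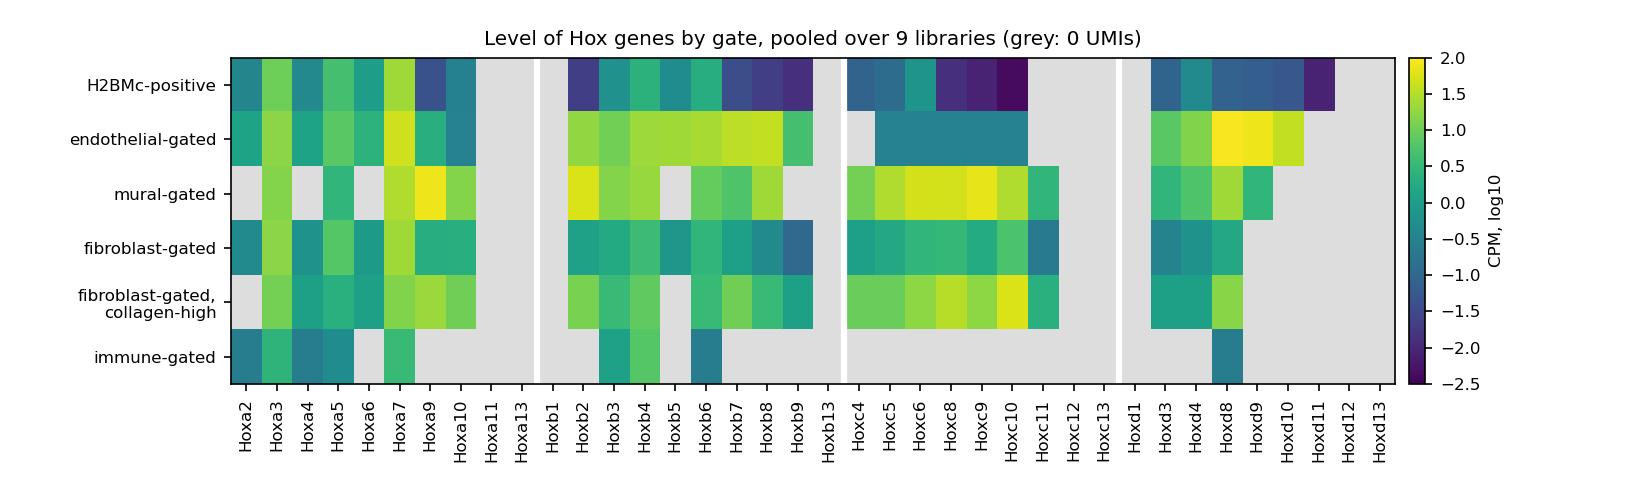
Level of the Hox genes reported here (columns, in cluster order) in each gate (rows), as CPM pooled over the 9 libraries on a log10 colour scale, with grey for genes without a UMI. H2BMc-positive cells are brightest at Hoxa7 and Hoxa3 and darker past Hoxa7 within HoxA, endothelial-gated cells are brightest at Hoxd8 and Hoxd9, and mural-gated and collagen-high fibroblast-gated cells are bright across Hoxc6 to Hoxc10.

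In single cells the same genes were sparse. After thinning each H2BMc-positive cell to 5000 UMIs, which left out 2090 cells, Hoxa7 had a UMI in 11.0% of cells, Hoxa3 in 5.24%, Hoxa5 in 2.58% and Hoxa10 in 0.198%. Without thinning the shares were 24.9%, 12.7%, 6.28% and 0.389%. By library the thinned share of Hoxa7 ranged from 10.0% to 12.9% with the groups overlapping, and any Hox gene had a UMI in 19.9% to 24.1% of cells. In immune-gated cells, set beside these as the background, the shares of Hoxa7 and Hoxa3 were 3.61% and 1.81% at 5000 UMIs, a depth that left 166 of 1652 cells, and 0.787% and 0.666% without thinning, at a median of 1781.5 UMIs against 11694 in H2BMc-positive cells.

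Whether loss of Kmt2c or Kmt2d in the tumour cells went with another Hox level was tested on counts summed per library, with edgeR's quasi-likelihood test over all genes and Benjamini-Hochberg adjustment. The Hox total averaged 49.6 ± 2.7 CPM over the WT tumours (SD, n = 3), 46.3 ± 5.1 over the Kmt2c KO tumours and 47.0 ± 1.0 over the Kmt2d KO tumours. Of the 39 genes, 14 passed the filter on low values among 14089 genes tested, and 1 of them, Hoxa10, was called in each knockout. Hoxa10 passed that filter through the WT libraries alone, where it was high, so its calls are given as a description.

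Hoxa10, a gene of the tail end of HoxA needed in the uterus, read 0.500, 1.18 and 1.43 CPM in the WT libraries. It read 0.206, 0.296 and 0.299 CPM in the Kmt2c KO libraries. It read 0.0409, 0.131 and 0.0626 CPM in the Kmt2d KO libraries. Every knockout library lay below every WT library, and every Kmt2d KO library lay below every Kmt2c KO library.

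The log2 fold change of Hoxa10 was -1.96 ± 0.44 (SE) for Kmt2c KO (edgeR adjusted p = 0.0134), lower than WT in 3 of 3 tumours. For Kmt2d KO it was -3.70 ± 0.52 (adjusted p = 0.0056), again lower in 3 of 3 tumours. Against this, 18.7% of all genes tested were called in Kmt2c KO and 2.27% in Kmt2d KO, so that 1 of 14 Hox genes was below the background share in Kmt2c KO. Kmt2d KO differed from Kmt2c KO by -1.73 ± 0.56 (adjusted p = 0.159), and no Hox gene was called between the knockouts by edgeR or DESeq2, where 0.0781% of all genes were called by edgeR and 1 Hox gene had an unadjusted p under 0.05. Without Kmt2d KO library 2 this difference was -2.19 and was called (adjusted p = 0.0374).

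The Hoxa10 values rest on few molecules. Loss of barcodes to the mitochondrial limit, which was higher in every WT than in every Kmt2c KO library, moved with the Kmt2c KO comparison, and without that limit the log2 fold changes were -1.94 (adjusted p = 0.0142) and -3.69 (adjusted p = 0.0056). The WT tumours held 36 Hoxa10 UMIs, the Kmt2c KO tumours 25 and the Kmt2d KO tumours 8, in 65 cells with no more than 3 UMIs each. Hoxa10 passed the filter on low values through the WT libraries alone, and without this filter its adjusted p was 0.0099 in Kmt2c KO and 0.000491 in Kmt2d KO. In a fit of only the WT and Kmt2d KO libraries Hoxa10 did not pass this filter and was not tested. The Kmt2c KO call was lost without WT library 2 (adjusted p = 0.0697) or WT library 3 (adjusted p = 0.0651). The Kmt2d KO call was kept without any single library, at adjusted p values up to 0.0457. Hoxa9, Hoxc9 and Hoxc10, which were read in the mural-gated and collagen-high cells described below, had 10, 2 and 1 UMIs in the H2BMc-positive cells, against 69 of Hoxa10.

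**Figure D2:**
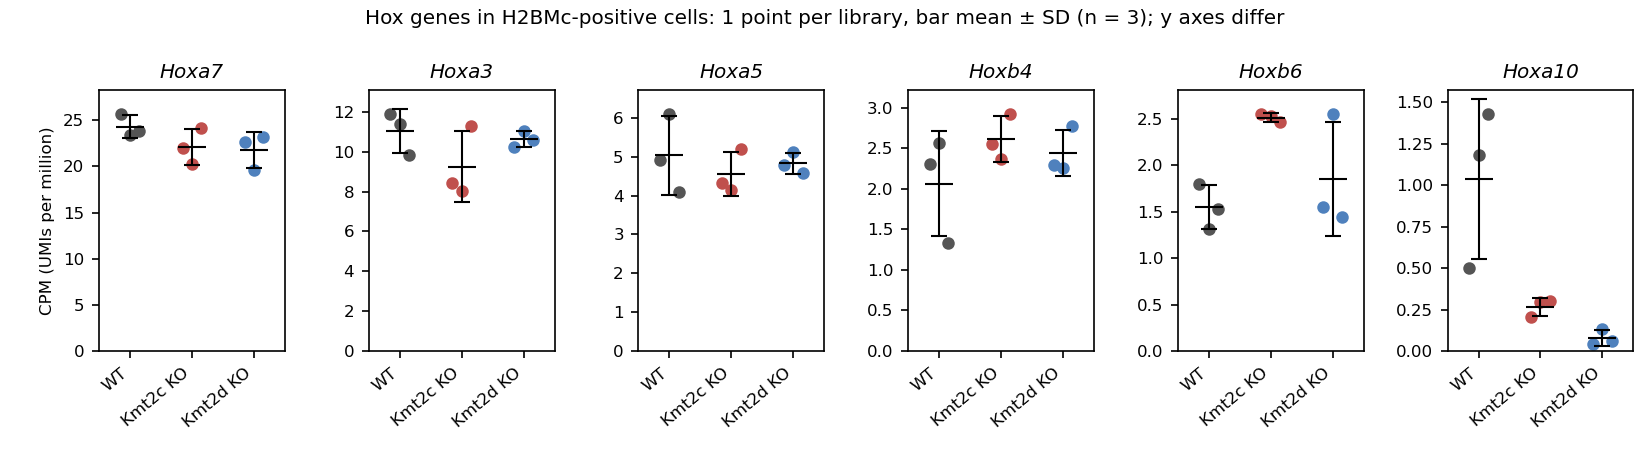
Level (CPM) of Hoxa7, Hoxa3, Hoxa5, Hoxb4, Hoxb6 and Hoxa10 in H2BMc-positive cells, with 1 point per library and the mean ± SD of 3 libraries per genotype, on y axes that start at 0 and differ between genes. The groups overlap for Hoxa3, Hoxa5 and Hoxb4, all 3 WT points of Hoxa7 lie just above those of Kmt2d KO but not above those of Kmt2c KO, and all 3 WT points of Hoxa10 lie above all knockout points.

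The leading Hox genes of the tumour cells were not called in either knockout. Hoxa7 read 25.7, 23.5 and 23.8 CPM in the WT libraries, 22.0, 20.3 and 24.1 in those of Kmt2c KO and 22.6, 19.6 and 23.2 in those of Kmt2d KO tumours. Its log2 fold change was -0.14 ± 0.10 in Kmt2c KO (adjusted p = 0.332) and -0.19 ± 0.10 in Kmt2d KO (adjusted p = 0.357). Kmt2c KO overlapped WT, whereas the Kmt2d KO values lay below those of WT in 3 of 3 libraries, by as little as 23.2 against 23.5 CPM.

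Hoxa3, which patterns the neck and its glands, read 11.9, 11.4 and 9.82 CPM in the WT libraries, 8.43, 8.01 and 11.3 in those of Kmt2c KO and 10.3, 11.0 and 10.6 in those of Kmt2d KO tumours. The Kmt2c KO range thus covered both the lowest values and 1 near the highest, and the log2 fold changes of -0.26 ± 0.13 and -0.09 ± 0.13 were not called (adjusted p = 0.175 and 0.785). Hoxa5, which patterns the lung and is known to be silenced in many breast tumours, read 4.90, 6.11 and 4.09 CPM in the WT libraries, 4.32, 4.14 and 5.19 in those of Kmt2c KO and 4.78, 5.11 and 4.59 in those of Kmt2d KO. Its log2 fold changes of -0.17 ± 0.16 and -0.11 ± 0.16 were not called (adjusted p = 0.505 and 0.793), and both turned positive without WT library 2.

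The share of HoxB among Hox UMIs, given here as a description, was larger in the knockout than in the WT tumours. HoxB gave 9.43%, 9.43% and 7.47% of Hox UMIs in the WT libraries, 14.0%, 14.3% and 13.4% in the Kmt2c KO libraries and 9.98%, 14.4% and 10.8% in the Kmt2d KO libraries. Kmt2c KO and WT did not overlap, as was the case for the loss to the mitochondrial limit, whose part in this share was not tested. Every Kmt2d KO library also lay above every WT library, by as little as 9.98% against 9.43%, and library 2 lay with the Kmt2c KO libraries. The loss to the mitochondrial limit overlapped between Kmt2d KO and WT. Hoxb6 read 1.80, 1.32 and 1.53 CPM in the WT libraries, 2.55, 2.53 and 2.46 in those of Kmt2c KO and 1.55, 2.56 and 1.44 in those of Kmt2d KO, where the high value was again library 2.

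The log2 fold change of Hoxb6 in Kmt2c KO was 0.71 ± 0.26 and did not pass the threshold (adjusted p = 0.0859). It was called without Kmt2d KO library 2, which enters only the shared estimate of spread (adjusted p = 0.0208), in a fit of only the groups compared (0.0307), and without H2BMc-positive cells that held 2 immune or 2 endothelial markers (0.049), and was not called under the other alternatives (adjusted p up to 0.248). Kmt2d KO differed from Kmt2c KO in Hoxb6 by -0.48 ± 0.23 (adjusted p = 0.306), and by -0.78 ± 0.19 without Kmt2d KO library 2, which was called (adjusted p = 0.0146). Against WT the Kmt2d KO difference of 0.23 ± 0.27 became -0.06 ± 0.23 without that library, with neither called. The other 12 tested Hox genes apart from Hoxa10 and Hoxb6 had log2 fold changes from -0.50 to 1.09 in Kmt2c KO. Their range in Kmt2d KO was -0.19 to 0.89, with none called. The median over the 14 genes was 0.22 in Kmt2c KO and 0.18 in Kmt2d KO, beside -0.00 and 0.01 over all genes tested.

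**Figure D3:**
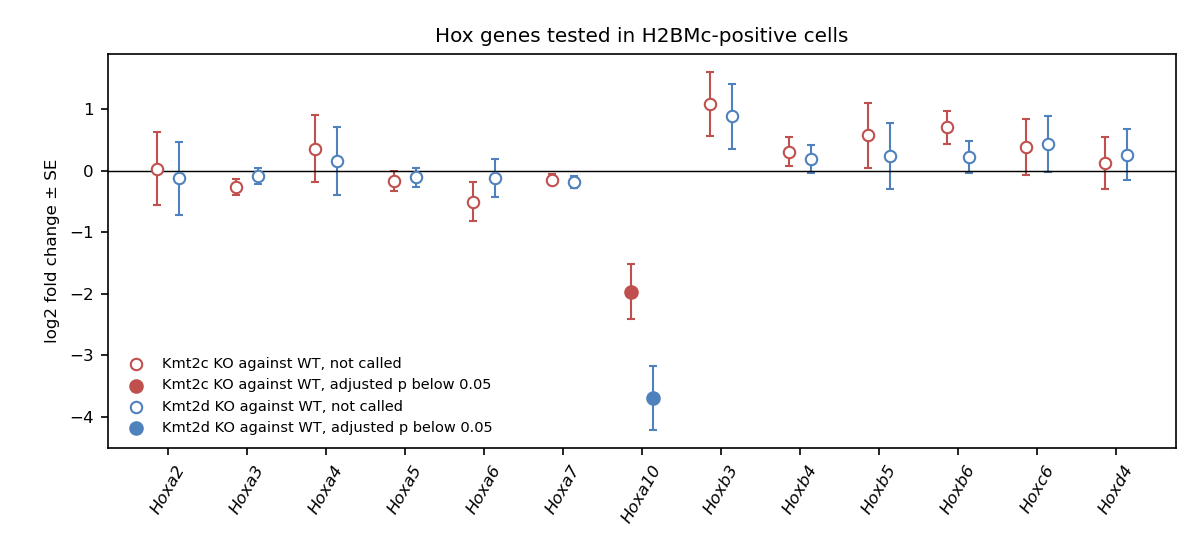
Log2 fold change ± SE of the Hox genes tested in H2BMc-positive cells and reported here, in cluster order, for Kmt2c KO against WT and Kmt2d KO against WT, which share the WT libraries. Filled points passed an adjusted p of 0.05 and only Hoxa10 is filled, at -1.96 and -3.70, while all other points shown lie between -0.50 and 1.09.

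Few genes that regulate or partner Hox proteins were called, beside 18.7% of all genes tested in Kmt2c KO and 2.27% in Kmt2d KO. In Kmt2d KO a count of 0 in lists this short is near that share. None of 19 chromatin regulators of Hox clusters, among them Kmt2a, Ezh2 and Kdm6a, was called in either knockout, and their median log2 fold changes were 0.00065 and 0.016. Of 7 tested genes of the PBX, MEIS and PKNOX family, the DNA-binding partners of Hox proteins, only Pbx3 was called in Kmt2c KO, where it was lower (-0.32 ± 0.10, adjusted p = 0.040), and none in Kmt2d KO. No Cdx gene, the upstream activators in the embryo, passed the filter. Of 12 tested neighbours outside the clusters 3 were called in Kmt2c KO, near the share over all genes, and none in Kmt2d KO. Snx10 was higher in Kmt2c KO by 1.08 ± 0.32 (adjusted p = 0.040), and Hibadh (-0.33 ± 0.09, adjusted p = 0.032) and Hnrnpa1 (-0.67 ± 0.11, adjusted p = 0.0032) were lower. Of the 4 tested noncoding genes inside the clusters none was called, and Hotairm1, a noncoding gene of HoxA, read 23.6 CPM, above Hoxa7.

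Host cells were gated by markers and by the absence of H2BMc, Krt8 and Krt18, and no Hox gene was used in a gate. The gates required at least 2 of 6 endothelial markers, at least 2 of 7 mural markers or at least 3 of 8 fibroblast markers. They held 476 endothelial-gated, 111 mural-gated and 1291 fibroblast-gated cells. H2BMc was not detected in every tumour cell, and only 36.6% of cells with a Krt8 UMI held one of H2BMc. The H2BMc-positive cells are thus a part of the tumour cells, chosen by detection of this transcript. The share of tumour-line cells expected in each gate was therefore computed from the H2BMc-positive cells that met its marker rule. It came to 18.5%, 1.56% and 69.6% in the endothelial, mural and fibroblast gate. The mural share is imprecise, as it rests on 1 H2BMc-positive cell. Cldn5, Egfl7 and Flt1, endothelial markers not used in the gate, had a UMI in 72.1%, 82.8% and 68.9% of endothelial-gated cells, and Pdgfrb and Acta2 in 91.9% and 63.1% of mural-gated cells. Col1a1 had a UMI in only 22.5% of fibroblast-gated cells, which goes against that label for most of the gate.

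**Figure D4:**
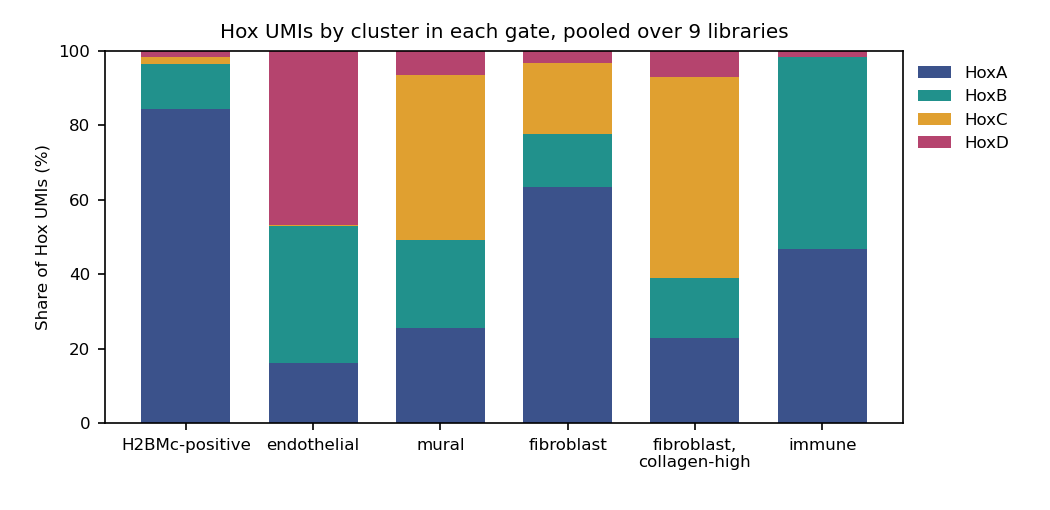
Share of Hox UMIs (y axis, percent) that came from HoxA, HoxB, HoxC and HoxD in each gate, pooled over the 9 libraries. HoxA makes up 84.4% in H2BMc-positive cells, HoxD and HoxB together most of the endothelial-gated bar, and HoxC 44.4% in mural-gated and 54.1% in collagen-high fibroblast-gated cells.

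Endothelial-gated cells had a Hox level of 486 CPM, led by HoxD (46.8% of Hox UMIs) and HoxB (36.8%), with 5 UMIs from the whole of HoxC. Hoxd8 read 91.7 CPM, Hoxd9 76.6, Hoxa7 46.8, Hoxb8 38.9, Hoxd10 38.3 and Hoxb7 35.4 CPM. A UMI of Hoxd8 was found in 34.9% of these cells and of Hoxd9 in 28.2%, against 0.0479% and 0.0599% of H2BMc-positive cells and 0.0605% and 0 of immune-gated cells, at median depths of 5245, 11694 and 1781.5 UMIs in that order. Past Hoxd10 no UMI of Hoxd11, Hoxd12 or Hoxd13 was found in these cells, which allows each a level of up to 0.949 CPM.

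The stretches before Hoxd8 and Hoxd9, the leading endothelial members and the ones called by tumour genotype in the gate of at least 2 markers, are shown from RefSeq in GRCm38.p6 on the plus strand of chromosome 2 (chr2:74704365-74704614 and chr2:74697513-74697762), with CpG dinucleotides in capitals.
Hoxd8: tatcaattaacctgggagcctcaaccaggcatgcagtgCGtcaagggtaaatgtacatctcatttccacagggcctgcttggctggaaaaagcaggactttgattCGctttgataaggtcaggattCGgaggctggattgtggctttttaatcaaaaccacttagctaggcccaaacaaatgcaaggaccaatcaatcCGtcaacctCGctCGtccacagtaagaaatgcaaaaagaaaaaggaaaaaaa
Hoxd9: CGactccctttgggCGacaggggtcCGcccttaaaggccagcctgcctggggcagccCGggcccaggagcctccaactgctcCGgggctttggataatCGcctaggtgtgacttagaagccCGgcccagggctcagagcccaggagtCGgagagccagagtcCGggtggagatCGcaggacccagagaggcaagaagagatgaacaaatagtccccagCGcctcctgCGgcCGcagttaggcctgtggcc
They held 6 and 13 CpG dinucleotides, and 49.7% and 68.5% of all stretches held fewer.

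Against H2BMc-positive cells of the same libraries, in an edgeR fit with the library as a block, 16 of 24 tested Hox genes were higher in endothelial-gated cells and none was lower, where 26.5% of all 12507 genes tested were higher. Of the 24, 11 had also passed the filter on low values in the genotype fit of H2BMc-positive cells, and 7 of these were higher. The fit between gates filtered anew over all its sums, so genes low in H2BMc-positive cells could enter it through the gates. The other 13, with 9 calls, passed only through the gates, and all 16 calls are given as a description. Hoxa7, which leads in the tumour cells, was higher by a log2 of 0.96 ± 0.17 (adjusted p = 3.1e-05), Hoxb4 by 3.11 ± 0.24, Hoxb6 by 3.61 ± 0.29 and Hoxb5 by 5.41 ± 0.42. Hoxd8 and Hoxd9 were higher by 9.70 ± 0.32 and 9.43 ± 0.44. Hoxa5, Hoxa6 and Hoxa10 were not called (adjusted p = 0.21, 0.13 and 0.63). In bulk sums of a gate, fewer cells with a transcript and less of it per cell cannot be told apart.

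The host endothelium kept Kmt2c and Kmt2d, so that its comparison by genotype asks whether vessels in knockout tumours carried other Hox levels. Hoxd9, a gene of the trunk and limb, read 95.7, 138 and 122 CPM in the WT libraries, 27.0, 31.4 and 31.7 in those of Kmt2c KO and 65.8, 43.8 and 78.2 in those of Kmt2d KO tumours. Both knockout groups lay wholly below WT. Its log2 fold change was -1.94 ± 0.28 in Kmt2c KO (edgeR adjusted p = 0.000524) and -0.91 ± 0.25 in Kmt2d KO, which was not called (adjusted p = 0.161).

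Hoxd8, its neighbour, read 112, 130 and 90.1 CPM in the WT libraries, 57.8, 57.1 and 44.4 in those of Kmt2c KO and 95.3, 69.4 and 141 in those of Kmt2d KO. Kmt2c KO lay below WT in 3 of 3 libraries and Kmt2d KO overlapped WT. The log2 fold changes were -1.02 ± 0.28 (adjusted p = 0.0266) and -0.09 ± 0.25 (adjusted p = 0.952). These were the only calls among 7 Hox genes tested in Kmt2c KO, where 10.5% of all 6349 genes were called. In Kmt2d KO against WT, and in Kmt2d KO against Kmt2c KO, no Hox gene was called by edgeR, or DESeq2, with backgrounds of 0.362% and 0.709%, and 1 and 2 Hox genes had an unadjusted p under 0.05. The other members tested, Hoxa7, Hoxb6, Hoxb7, Hoxb8 and Hoxd10, had log2 fold changes from -0.99 to 0.02 in Kmt2c KO, with adjusted p from 0.179 to 0.989.

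Of the other leading members of the endothelial gate none was called. Hoxa7 read 39.9, 57.7 and 50.1 CPM in the WT libraries, 27.0, 54.3 and 31.7 in those of Kmt2c KO and 46.0, 36.5 and 65.2 in those of Kmt2d KO. Hoxd10, the last HoxD gene with a UMI in this gate, read 39.9, 52.7 and 58.1, then 27.0, 37.1 and 9.51, then 49.3, 14.6 and 36.5 CPM in the same order. Kmt2c KO lay below WT in 3 of 3 libraries for Hoxd10, without passing the threshold.

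Among the HoxB genes, Hoxb8 read 61.2, 45.1 and 40.1 CPM in WT, then 27.0, 28.6 and 41.2, then 42.7, 21.9 and 33.9 CPM. Hoxb7 read 45.2, 35.1 and 48.1, then 42.4, 20.0 and 25.4, then 23.0, 29.2 and 41.7 CPM. Hoxb6 read 18.6, 30.1 and 26.0, then 30.8, 25.7 and 19.0, then 19.7, 21.9 and 33.9 CPM. The groups overlapped for each of these genes. Hoxb4 ranged from 11.6 to 30.1 CPM and Hoxb5 from 11.4 to 54.7 CPM over the 9 libraries, and both were too low to pass the filter for the test.

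Tumour-line cells in the endothelial gate moved with genotype in the same way. Their expected share was 0 to 1.68% in WT, 34.3% to 43.5% in Kmt2c KO and 3.85% to 26.6% in Kmt2d KO libraries. Eng and Cdh5, 2 of the 6 markers, had a UMI in 19.9% and 7.57% of H2BMc-positive cells. The summed gate markers read 4159 to 4720 CPM in WT, 2491 to 3142 in Kmt2c KO and 3549 to 4494 in Kmt2d KO. With at least 3 markers required, 382 cells were left and the expected share was at most 5.28% in any library. This share is imprecise, as it rests on 5 H2BMc-positive cells in all. The marker sums were level at 3818 to 4882 CPM, but they are of the markers that the gate itself requires.

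In this stricter gate the Hoxd9 difference was smaller but held. Hoxd9 read 97.6, 140 and 125 CPM in the WT libraries, 40.7, 44.6 and 54.8 in those of Kmt2c KO and 71.5, 60.2 and 82.4 in those of Kmt2d KO, so that neither knockout group overlapped WT in CPM. The log2 fold change in Kmt2c KO was -1.35 ± 0.27 (adjusted p = 0.0111), the only call among 6 Hox genes tested, where 5.77% of all 5214 genes were called. In Kmt2d KO it was -0.74 and not called (adjusted p = 0.298), no Hox gene was called by edgeR, 1 had an unadjusted p under 0.05, and the background was 0.0384%. DESeq2 was not run on the stricter gate.

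The Hoxd8 call did not hold in the stricter gate, although every Kmt2c KO library still lay below every WT library. Hoxd8 read 117, 132 and 93.5 CPM in the WT libraries, 87.1, 81.1 and 85.3 in those of Kmt2c KO and 104, 95.4 and 148 in those of Kmt2d KO. Its log2 fold change in Kmt2c KO was -0.40 ± 0.25 (adjusted p = 0.378), and the Hox total averaged 598 ± 26 CPM over the WT, 492 ± 37 over the Kmt2c KO and 548 ± 73 over the Kmt2d KO libraries (SD, n = 3). In the wider gate the Hoxd8 call was also lost with DESeq2 (adjusted p = 0.0892), without WT library 1 or 2, and without any 1 of the Kmt2c KO libraries (adjusted p = 0.0558 to 0.147).

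Whether the genotype difference itself differed between endothelial-gated and H2BMc-positive cells was tested with an edgeR interaction term, and none of 20 Hox genes tested was called in any contrast. With at least 2 endothelial markers 7.2% of all genes were called for Kmt2c KO against WT, 1.33% for Kmt2d KO against WT and 2.17% between the knockouts. With at least 3 markers these shares were 2.8%, 0.584% and 1.21%. A count of 0 among 20 genes is near each of these shares, and at most 3 Hox genes per contrast had an unadjusted p under 0.05. Hoxd9, Hoxd10 and Hoxb8 had only 16, 12 and 5 UMIs in the H2BMc-positive cells. For such genes the term had little to compare with, so it could not decide whether the Hoxd9 difference was particular to endothelial-gated cells.

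Lymphatic genes of the endothelial-gated cells were also read by library, without a test. Lyve1, a gene of lymphatic endothelium chosen here after its values were seen, read 0, 5.09 and 0 CPM in WT, 122, 44.6 and 48.7 in Kmt2c KO and 0 in all Kmt2d KO libraries in the stricter gate. Prox1, which specifies lymphatic endothelium, read 0, 10.2 and 0, then 40.7, 8.11 and 18.3, then 3.58, 0 and 0 CPM. The part of vessel type in the Hoxd9 difference was not tested.

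**Figure D5:**
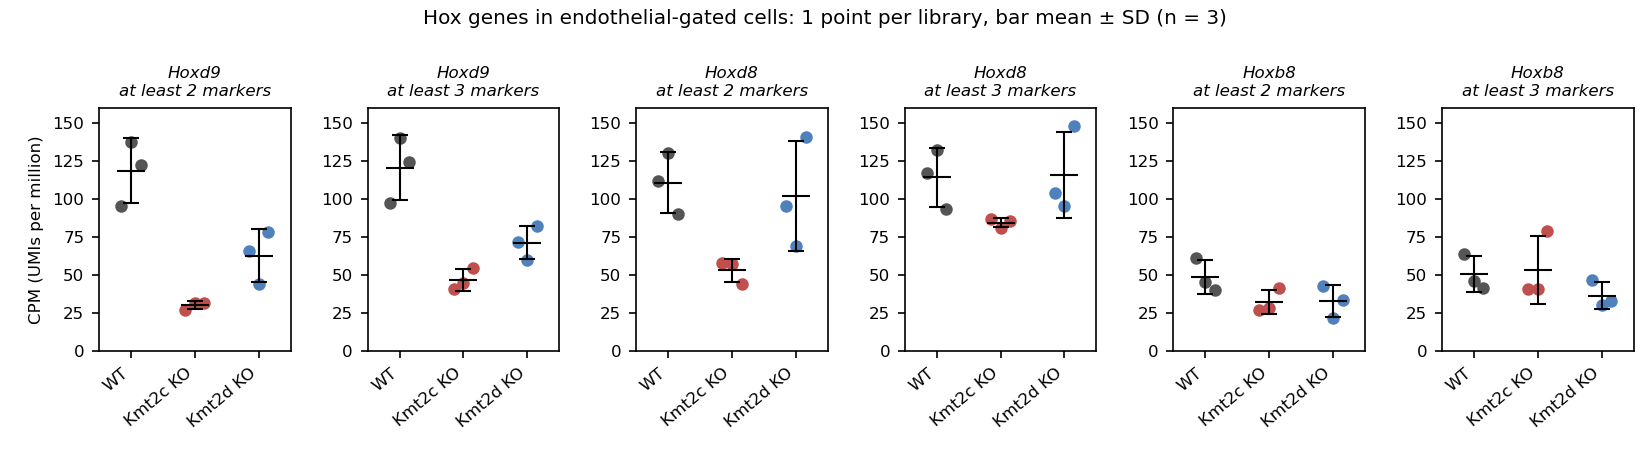
Level (CPM) of Hoxd9, Hoxd8 and Hoxb8 in endothelial-gated cells with at least 2 and at least 3 markers, with 1 point per library and the mean ± SD of 3 libraries per genotype, on a shared scale from 0. Hoxd9 lies lower in Kmt2c KO than in WT in both gates, whereas the Hoxd8 gap narrows with 3 markers and Hoxb8 overlaps.

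Mural-gated cells, the pericytes and smooth muscle cells of vessel walls, had a Hox level of 543 CPM from 187 UMIs. HoxC gave 44.4% of it, HoxA 25.7% and HoxB 23.5%. Hoxa9 read 75.5 CPM (26 UMIs), Hoxc9 66.8 (23 UMIs), Hoxb2 55.1 (19), Hoxc6 52.2 (18), Hoxc8 49.3 (17), and Hoxc5, Hoxc10 and Hoxa7 each 29.0 CPM (10 UMIs). Hoxd9 had 1 UMI and Hoxd10 none, so that the pattern was set apart from the endothelial one in HoxC and HoxD.

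The mural UMIs came from many libraries. Hoxa9 had 4, 9 and 1 UMIs in WT, 3, 6 and 1 in Kmt2c KO and 1, 0 and 1 in Kmt2d KO. Hoxc9 had 2, 4 and 2, then 1, 5 and 6, then 0, 1 and 2 UMIs in the same order. Each HoxC gene named here had a UMI in at least 1 library of every genotype. Hoxc6 had 1, 0 and 3, then 2, 3 and 3, then 2, 0 and 4 UMIs. Hoxc8 had 0, 3 and 4, then 0, 1 and 6, then 0, 1 and 2 UMIs. Hoxb2 had 0, 2 and 4, then 0, 4 and 5, then 2, 0 and 2 UMIs. Hoxc5, Hoxc10 and Hoxa7 had 0 to 3 UMIs in any library. Libraries held 3 to 25 mural-gated cells. Genotypes were not tested, as the fit needed at least 2 libraries of each group with enough cells. Kmt2d KO libraries held 8, 3 and 10 cells and fell short even at a limit of 10. WT libraries held 10, 25 and 11 and those of Kmt2c KO 14, 16 and 14, but these groups were not fitted without Kmt2d KO.

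Only WT library 2 reached 20 mural-gated cells. In the fit with that library alone for this gate, Hoxa9 was higher than in H2BMc-positive cells by a log2 of 10.9 and Hoxc9 by 13.3. Only effect sizes are given, as the lone sample is assumed to vary like the others. Both genes passed the filter on low values only through the gates, so these values are a description. With the 7 libraries of at least 10 cells, 11 of 16 tested Hox genes were called higher, where 17.1% of all 9303 genes were. Of these 16, 5 had also passed the filter in the genotype fit of H2BMc-positive cells, and 2 of them were higher. These were Hoxc6 by a log2 of 6.17 ± 0.65 (edgeR adjusted p = 1.19e-09) and Hoxb4 by 2.64 ± 0.67 (adjusted p = 0.00209). Hoxa7 (-0.07 ± 0.59) and Hoxa3 (0.11 ± 0.82) were not called. Hoxc6 and Hoxb4 read 0.673 and 2.49 CPM in H2BMc-positive cells. The fit of 7 libraries filtered over all its sums, so both could enter it through the gates. The other 9 calls, Hoxc9 and Hoxa9 among them, came from genes that passed only through the gates, and all 11 calls are a description.

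Fibroblast-gated cells, 69.6% of them expected to be of the tumour line, read 84.3 CPM of Hox genes, with Hoxa7 at 23.3 and Hoxa3 at 16.7 CPM. Against H2BMc-positive cells, 14 of 24 tested Hox genes were higher and none was lower, where 25.5% of all genes were higher. The count was 6 without WT library 2, and 6 with at least 1 Xist UMI required per cell. Of the 11 that had also passed the filter in the genotype fit of H2BMc-positive cells, 4 were higher. Hoxa3 was higher by 0.55 ± 0.18 (edgeR adjusted p = 0.011) and Hoxa10 by 2.87 ± 0.50. Hoxb3 was higher by 1.32 ± 0.50 and Hoxc6 by 1.97 ± 0.47. Hoxa10, Hoxb3 and Hoxc6 read 0.298, 0.591 and 0.673 CPM in H2BMc-positive cells and could enter this fit through the gates. Hoxc10, Hoxc8 and Hoxc9 were higher by 7.87 ± 0.58, 6.61 ± 0.63 and 6.14 ± 0.60. They and the other 7 genes called passed the filter only through the gates, and all 14 calls are given as a description. Hoxa7 and Hoxa5 were not called (adjusted p = 0.49 and 0.36).

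Across genotypes, Hoxa3, Hoxa5 and Hoxa7 were the only members tested in fibroblast-gated cells and none was called by edgeR or DESeq2 in Kmt2c KO, where 0.969% of all 10010 genes were called, or in Kmt2d KO, where 0.02% were, and none had an unadjusted p under 0.05. Hoxa7 read 28.6, 20.9 and 4.23 CPM in the WT libraries, 32.0, 17.5 and 24.9 in those of Kmt2c KO and 30.1, 24.5 and 16.6 in those of Kmt2d KO, with the groups overlapping. It differed by a log2 of 0.44 ± 0.47 and 0.39 ± 0.47 (adjusted p = 0.715 and 0.790).

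A split of this gate at 5 UMIs of Col1a1 and Col1a2, chosen after the values were seen and not tested, parted 2 Hox patterns. The 140 collagen-high cells had 231 Hox UMIs (266 CPM), 54.1% of them from HoxC, with Hoxc10 at 55.3 CPM, Hoxc8 at 33.4 and Hoxa9 at 20.7 CPM, and no UMI of Hoxd9 or Hoxd10. Hoxc10 UMIs came from 7 of 9 libraries, with 18 of 48 in Kmt2d KO library 2. The other 1151 cells read 65.1 CPM, 80.8% of it from HoxA, beside 47.2 CPM and 84.4% in the H2BMc-positive cells.

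Hoxa10 was read in all 3 stromal gates as well, at 14.5 CPM in mural-gated, 10.4 in collagen-high and 0.316 in endothelial-gated cells, with 5, 9 and 1 UMIs. Its level in the WT tumour cells, 1.04 ± 0.48 CPM (SD, n = 3), lay between these. Hoxa9 UMIs outnumbered those of Hoxa10 in mural-gated cells by 26 to 5 and in collagen-high cells by 18 to 9, while in the WT tumour cells there were 1 of Hoxa9 and 36 of Hoxa10.

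Immune-gated cells read 15.5 CPM of Hox genes (64 UMIs in 1652 cells), the lowest of the gates. Hoxb4, a gene of blood stem cells, led with 27 UMIs and 6.53 CPM, and HoxC had none, which allows up to 0.726 CPM. The genes of groups 12 and 13, at the tail end of every cluster, had no UMI in any gate.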

How the data were processed

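Per the submitters' processing notes and the paper's methods, the authors aligned 5′ libraries to mm10 with Cell Ranger 7.0.1 and aggregated the 9 libraries. The deposited values are raw UMI counts per gene and cell. A cell's library came from its barcode suffix and the deposited aggregation table, and its group from that table's genotype letter, as given in the report. Whether aggregation thinned the libraries is not stated in the sources used here. Cells with over 500 and under 7500 genes and under 15% mitochondrial UMIs were kept. No doublet caller was run, and 29 cells that met 2 gates were left out.

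Counts were summed per library and gate (at least 20 cells) and tested with edgeR 4.0.16 (filterByExpr, TMM, quasi-likelihood test, R 4.3.3), with Benjamini-Hochberg adjustment over all genes tested and calls at 0.05. The fits between gates held the library as a block. DESeq2 1.42.0 was an alternative. Per-gene values were named for Hox genes with a mean of at least 5 CPM in H2BMc-positive cells of a genotype, called between genotypes, or at 20 CPM and 10 UMIs in a stromal gate. Hoxb6, Hotairm1, Lyve1, Prox1 and the collagen split were chosen after their values were seen.

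The counts over all members include 1 member whose own values are not reported here. The Hox genes were proposed as a subject, and the gene lists chosen, with earlier results of these data known, although the rule for the members uses only their symbols. P-values measure the spread between tumours grown from the same cell pools. Intervals and limits cover counting error only. On simulated counts of the Kmt2c KO against WT comparison in H2BMc-positive cells (14074 genes), the test recovered 37% of genes changed by a log2 of 1 and 94% of those changed by 2. In endothelial-gated cells (6273 genes) these shares were 9% and 68%. The changed genes were drawn from all genes that passed the filter, and the simulated spread was set by hand, not estimated from these data. The shares thus do not give the power for Hox genes near the filter limit.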

Additional observations from a re-analysis of the deposited data

Results flagged for a closer look

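Hotairm1, a noncoding gene of the HoxA cluster, responded to genotype differently in endothelial-gated and H2BMc-positive cells, by an edgeR interaction term over all genes. The log2 difference of Kmt2c KO from WT was lower in endothelial-gated cells by -2.57 ± 0.47 with at least 2 markers (adjusted p = 7.43e-06) and by -2.25 ± 0.51 with at least 3 markers (adjusted p = 0.000924). For Kmt2d KO against Kmt2c KO the term was 1.84 with at least 2 markers (adjusted p = 0.0354), and 1.23 with at least 3 markers, which was not called (adjusted p = 0.642). With at least 3 markers Hotairm1 read 44.6, 71.3 and 47.8 CPM in WT, 11.6, 28.4 and 0 in Kmt2c KO and 21.5, 20.1 and 35.7 in Kmt2d KO libraries, so that both knockouts lay below WT in 3 of 3 libraries. For Kmt2d KO against WT the term was -0.73 ± 0.39 with at least 2 markers (adjusted p = 0.666) and -1.02 ± 0.41 with at least 3 (adjusted p = 0.464), and was not called. None of 20 Hox genes passed this edgeR test in any contrast, at most 3 per contrast had an unadjusted p under 0.05, and 0.584% to 7.2% of all genes passed it, so that 0 of 20 is near the background. For Hox genes with few UMIs in H2BMc-positive cells, Hoxd9 among them, the term could not decide. Hotairm1 was named after its values were seen.

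Immune-gated cells, which enter no tested comparison above, held more than 3 UMIs, the limit that a count of 0 allows, of 4 Hox genes. These were Hoxb4 with 27 UMIs, Hoxa7 with 14, Hoxa3 with 11 and Hoxb3 with 5. The expected share of tumour-line cells in this gate was 4.61%, and its part in these counts was not tested.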

How the results depend on the processing

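The 28 named-gene results had 438 alternative values, of which 422 kept their direction and their side of the threshold, 10 lost the call, 1 gained it and 5 changed sign. Counts of Hox genes called are compared here with those in the report. For most of these fits the share over all genes is not given, so the counts are not read as results about Hox genes. In Kmt2c KO against WT tumour cells the count was 2, with Hoxb6 added, in a fit of only the groups compared and without cells holding 2 immune or 2 endothelial markers, and 0 to 2 without single libraries (0 without WT library 2 or 3, 2 without Kmt2d KO library 2). In Kmt2d KO against WT it was 0 in a fit of only the groups compared, in which Hoxa10 did not pass the filter on low values, and 1 without any single library. Between the knockouts it was 0 to 2 without single libraries. Fibroblast-gated against H2BMc-positive cells gave 6 with at least 1 Xist UMI required, and 6 to 14 without single libraries, the lowest without WT library 2. Mural-gated cells gave 11 with libraries of at least 10 cells, and 11 with 1 marker more as well. Endothelial-gated cells gave 13 to 17 without single libraries, and 11 to 20 over all alternatives. Across genotypes, fibroblast-gated cells gave 2 without a filter on low values, Hoxb2 and Hoxc10, and endothelial-gated cells gave 1 with DESeq2, 1 with at least 3 markers and 1 to 2 without single libraries. Shares of cells thinned to 2000 UMIs were 2.17% for Hoxa3, 1.12% for Hoxa5 and 4.79% for Hoxa7, and unthinned 12.7%, 6.28% and 24.9%. Sign changes were those of Hoxa5 without WT library 2 (0.0271 in Kmt2c KO, within a range of -0.268 to 0.0271 without single libraries, and 0.0793 in Kmt2d KO, within -0.215 to 0.0793) and of Hoxd8 in Kmt2d KO endothelial-gated cells (0.0522 with at least 3 markers, and -0.394 to 0.105 without single libraries, positive without WT library 2 or Kmt2d KO library 2). The causes were not tested. Several of these alternatives were chosen after seeing the data, among them those on doubtful tumour cells, on 10 cells with 1 marker more, and DESeq2 within gates. Genotypes of mural-gated cells were not fitted, as too few Kmt2d KO libraries had enough cells, and Kmt2c KO against WT was not fitted alone. Fibroblast-gated genotypes with 1 marker more and mural-gated cells with Xist gave no value, as too few libraries had enough cells. No paired analysis was possible because the replicate numbers in the labels are not tied to the libraries of the deposited table.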
